A study of Komagataella phaffii with 26 samples.

Results

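*Komagataella phaffii* X-33 cells growing on glucose and held for 60 min in glucose medium at pH 8.0 (2 libraries) were set against the time zero of the same glucose course (2 libraries), which makes 4 of the 26 libraries of the series. They were picked by their labels, with no use of measured values. The strain is a wild-type methylotrophic yeast, widely used to produce foreign proteins, and all 4 libraries come from it. Cells grew at 28 °C in rich medium (yeast extract and peptone) with 20 g per L of glucose, were spun down in exponential phase and were resuspended in fresh medium of the same kind with 50 mM TAPS, a pH buffer. The time zero cells were sampled as soon as they had been resuspended at pH 5.5, and the others after 60 min at pH 8.0, the last of 3 samplings (15, 30 and 60 min) of each stressed culture. No culture was held for 60 min at pH 5.5, so the pH shift and an hour in fresh medium after handling cannot be told apart here. The other libraries hold the rest of the glucose course and glycerol cultures shifted to pH 8.0 or 8.2.

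Yeasts take up most nutrients by symport with protons that the plasma membrane H+-ATPase pumps out, and a rise in outside pH removes that gradient and lowers the solubility of iron, copper, zinc and phosphate. In *Saccharomyces cerevisiae*, the known answer runs through the Rim101 pathway, calcium signalling by calcineurin, the phosphate-starvation (PHO) regulon and the Snf1 pathway that also responds to glucose scarcity. Glucose is the preferred carbon source and holds genes for other carbon sources down. *K. phaffii* is a strictly respiratory yeast that nevertheless expresses its glycolytic genes highly on glucose.

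Levels are reads per kilobase of gene and per M reads (RPKM), where M is 1000000. Depth was not taken from a report but recovered from the steps between RPKM values. It came to between 16.3 and 20.0 M reads in the 4 libraries, of which 92.5 to 93.0% fell in genes. Over the 26 libraries it came to between 16.3 and 20.4 M. The paper gives a higher average number of reads per sample, and the reason was not examined. Replicates agreed closely: the median SD between replicates over genes was 0.05 on the log2 scale at 60 min and 0.08 at time zero. The study's methods call the 2 replicates of a condition biological. The p-values rest on the spread between replicates pooled over all 12 groups, and not on the 2 groups compared alone. In a culture measured in bulk, fewer cells with a transcript and less of it per cell cannot be told apart. Changes are differences of log2(RPKM + 1) with their standard error (SE), which understates the change of genes with low levels. They were tested with limma on 5034 genes, with the spread estimated over all 26 libraries and p-values adjusted by the Benjamini-Hochberg method over all genes. A gene that passed an adjusted p of 0.05 is said to have risen or fallen, and one that also changed at least 2-fold with a raw p under 0.01 is said to be called.

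After 60 min on glucose at pH 8.0, 124 genes were called higher and 111 were called lower, which is 2.46% and 2.21% of the genes tested. At the adjusted p alone, 1177 genes had risen (23.4%) and 560 had fallen (11.1%), and the median change over all genes was 0.10. The excess of rises depended on the scaling: after median-ratio scaling of the libraries the median change was 0.015. In each of the 235 called genes the 2 libraries at 60 min lay beyond both libraries at time zero. Over all genes both libraries lay above in 50.2% and below in 23.9%, so with 2 libraries a group the lack of overlap marks little by itself. Changes of at least 2 on the log2 scale (4-fold) were seen for 32 called genes that rose and 25 that fell, and changes of at least 3 for 10 and 6. The called genes lay on all 4 chromosomes, at between 2.02 and 2.99% of the genes of a chromosome for the rises and between 1.96 and 2.33% for the falls. Genes called lower were abundant before the shift, with a median level of 47.2 RPKM at 60 min against 154.6 RPKM at time zero, where the median of all genes was 54.8 RPKM at 60 min against 50.3 RPKM at time zero. Genes called higher had a median level of 104 RPKM at 60 min against 29.8 RPKM at time zero.

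**Figure D1:**
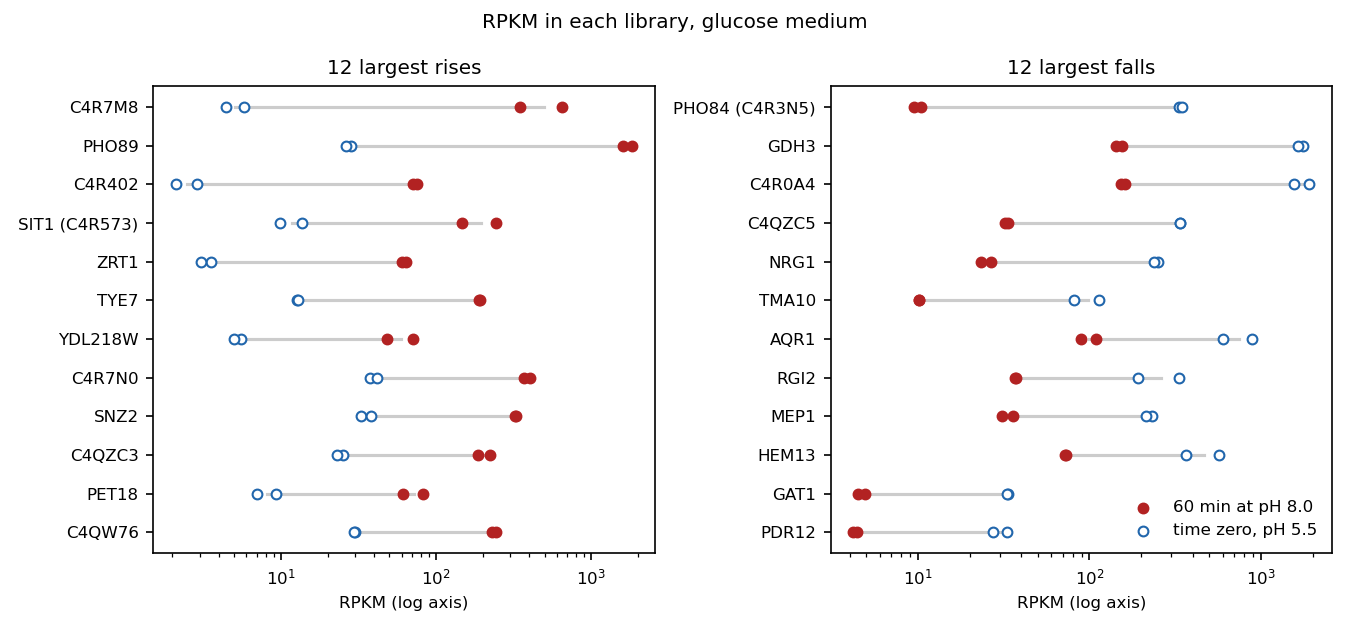
RPKM on a log axis in each of the 4 libraries for the 12 called genes with the largest rise (left) and the 12 with the largest fall (right), with filled points for 60 min at pH 8.0, open points for time zero and a line joining the group means. PHO89 lies at 1828 and 1609 RPKM at 60 min and PHO84 (C4R3N5) at 10.5 and 9.54 RPKM. The 24 genes were picked among called genes whose groups do not overlap.

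The gene with the largest rise has no known function. C4R7M8 (chromosome 4, 727983 to 728618, plus strand, build ASM2700v1) had 348 and 647 RPKM at 60 min, against 5.75 and 4.41 RPKM at time zero, a log2 fold change of 6.30 (SE 0.39, adjusted p = 4.19e-10). Both libraries at 60 min stood far above both at time zero, though they differed from each other more than in most genes. It is the middle one of 5 adjacent genes on the same strand, C4R7M6, C4R7M7, C4R7M8, C4R7M9 and C4R7N0, all described as hypothetical proteins and all called higher. C4R7N0 had 369.9 and 403 RPKM at 60 min against 37.6 and 41.8 RPKM at time zero (log2 fold change 3.25, SE 0.36, adjusted p = 1.2e-06). The other 3 rose less, by 1.55 (C4R7M6), 1.50 (C4R7M7) and 1.29 (C4R7M9) on the log2 scale.

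Phosphate genes held both the strongest rise of a named gene and the strongest fall of all. PHO89, a sodium-coupled phosphate transporter that in *S. cerevisiae* works at alkaline pH (chromosome 2, 442707 to 444437, plus strand), had 1828 and 1609 RPKM at 60 min, against 28.5 and 26.4 RPKM at time zero. Its mean level was 62.6-fold higher at 60 min, with a log2 fold change of 5.92 (SE 0.14, adjusted p = 2.66e-16). PHO84 (C4R3N5), the high-affinity phosphate transporter that uses protons (chromosome 3, 282658 to 284424, minus strand), had 10.5 and 9.54 RPKM at 60 min, against 334 and 345 RPKM at time zero. The low libraries are here those at 60 min, and the log2 fold change was -4.95 (SE 0.13, adjusted p = 5.77e-16). A second gene annotated as PHO84 (C4R7K5) also fell, with 19.6 and 21 RPKM at 60 min against 69 and 116 RPKM at time zero (log2 fold change -2.09, SE 0.27, adjusted p = 7.16e-06). The sodium-coupled and the proton-coupled transporters thus moved in opposite directions. How reads that fit both PHO84 genes were treated is not given in the sources used here, which leaves the split between such copies uncertain, as for the paired GAS1, CAR1, STL1 and FRE2 genes.

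The other phosphate genes moved much less. Of the 11 in the list, 6 were called higher and 2 lower, 8 rose and 2 fell at the adjusted p, and the median change was 1.00 against 0.10 for all genes. The vacuolar polyphosphate synthesis complex rose as a group: VTC1 had 653 and 579 RPKM at 60 min against 189 and 195 RPKM at time zero (log2 fold change 1.67, SE 0.12, adjusted p = 2.67e-09), VTC2 rose by 1.51 and VTC4 by 1.00. PHO4, named as the transcription factor of the regulon, had 225 and 214 RPKM at 60 min against 88.2 and 93.7 RPKM at time zero (log2 fold change 1.26, SE 0.12, adjusted p = 9.43e-08). PHO12, a secreted acid phosphatase, rose by 1.10, the regulators PHO80 and PHO81 rose by 0.75 and 0.63, short of 2-fold, and GDE1, a glycerophosphocholine phosphodiesterase, changed by 0.16 (adjusted p = 0.217). As in nearly all lists used here, the members had been taken from genes already known to change in this series, so their counts are not independent evidence of a direction.

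Metal transporters split in the same way between members of a family. ZRT1, the high-affinity zinc transporter, had 64.2 and 60.1 RPKM at 60 min, against 3.55 and 3.06 RPKM at time zero (log2 fold change 3.88, SE 0.13, adjusted p = 3.63e-14). ZRT2, its low-affinity counterpart, had 90.6 and 93.5 RPKM at 60 min against 265 and 312 RPKM at time zero (log2 fold change -1.63, SE 0.10, adjusted p = 1.98e-10). ZRT2 was by far the more abundant of the pair at time zero, and at 60 min the gap between them had nearly closed. ZPS1, a secreted protein whose gene lies next to ZRT1 on the opposite strand, rose by 1.11.

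Iron uptake genes went both ways. SIT1 (C4R573), a transporter of the siderophore ferrioxamine B, had 244 and 146 RPKM at 60 min against 13.7 and 9.92 RPKM at time zero (log2 fold change 3.91, SE 0.37, adjusted p = 1.18e-07), so both libraries at 60 min were far above both at time zero. SIT1 (C4QZD7) rose by 0.85, and ARN1, another siderophore transporter, did not pass (0.41, adjusted p = 0.195). FET4 (C4R354), annotated as a low-affinity iron transporter, had 15.2 and 14.1 RPKM at 60 min against 2.78 and 1.91 RPKM at time zero (log2 fold change 2.24, SE 0.26, adjusted p = 1.81e-06). A second gene of that annotation, FET4 (C4R6L2), fell by 0.63 on the log2 scale (adjusted p = 0.00701). FET3, the multicopper oxidase of high-affinity iron uptake, had 116 and 134 RPKM at 60 min against 405 and 383 RPKM at time zero (log2 fold change -1.66, SE 0.13, adjusted p = 6.91e-09). FTR1, the high-affinity iron permease, did not pass (-0.25, adjusted p = 0.45). Ferric reductases differed as well: both FRE2 genes rose (1.52 and 1.10), while FRE3 fell by 1.67 on the log2 scale. FRE1 had 887 and 351 RPKM at 60 min against 251 and 287 RPKM at time zero, so its replicates at 60 min differed widely from each other (log2 fold change 1.05, adjusted p = 0.0149). Of 8 siderophore and reductase genes, 4 were called higher and 1 lower, and of 15 iron, copper and zinc genes, 3 were called higher and 4 lower, with a median change of -0.12.

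Sodium and pH genes included some of the clearest changes. ENA2, a P-type ATPase that exports sodium, had 272 and 242 RPKM at 60 min against 52.9 and 54.9 RPKM at time zero (log2 fold change 2.23, SE 0.10, adjusted p = 1.62e-12). RIM101, the transcription factor of the alkaline pH pathway, had 130.1 and 129 RPKM at 60 min against 52 and 47.8 RPKM at time zero (log2 fold change 1.36, SE 0.11, adjusted p = 2.2e-08). NRG1, a repressor that Rim101 itself represses in *S. cerevisiae*, had 23.4 and 26.8 RPKM at 60 min against 252 and 239 RPKM at time zero, which is 9.8-fold lower (log2 fold change -3.24, SE 0.18, adjusted p = 1.02e-10). In each of the 3 genes the replicates were close and the groups well apart.

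The plasma membrane H+-ATPase itself fell. PMA1 had 894 and 804 RPKM at 60 min against 1366 and 1198 RPKM at time zero (log2 fold change -0.59, SE 0.11, adjusted p = 0.000372), short of 2-fold. The Na+/H+ antiporter NHA1 fell by 0.83 on the log2 scale. The 2 genes named HRK1 moved apart. HRK1 (C4R6H2), described as a kinase that activates Pma1, had 40 and 38.8 RPKM at 60 min against 88.6 and 94.9 RPKM at time zero (log2 fold change -1.20). HRK1 (C4R8L7), described as a kinase that stabilises amino acid transporters, had 50 and 48.8 RPKM at 60 min against 27 and 26.2 RPKM at time zero (log2 fold change 0.87). Among calcium genes, the vacuolar Ca2+-ATPase PMC1 rose by 0.71 and the calcineurin inhibitor RCN1 by 0.43, while CNB1, the regulatory subunit of calcineurin, fell by 0.60 on the log2 scale. DFG16, a membrane sensor of the Rim pathway, rose by 0.51 (adjusted p = 0.00843), but was not past the threshold without time zero replicate 2 (adjusted p = 0.0565). All 11 genes of this list passed the adjusted p, 6 upward and 5 downward, but only 2 were called higher and 2 lower.

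**Figure D2:**
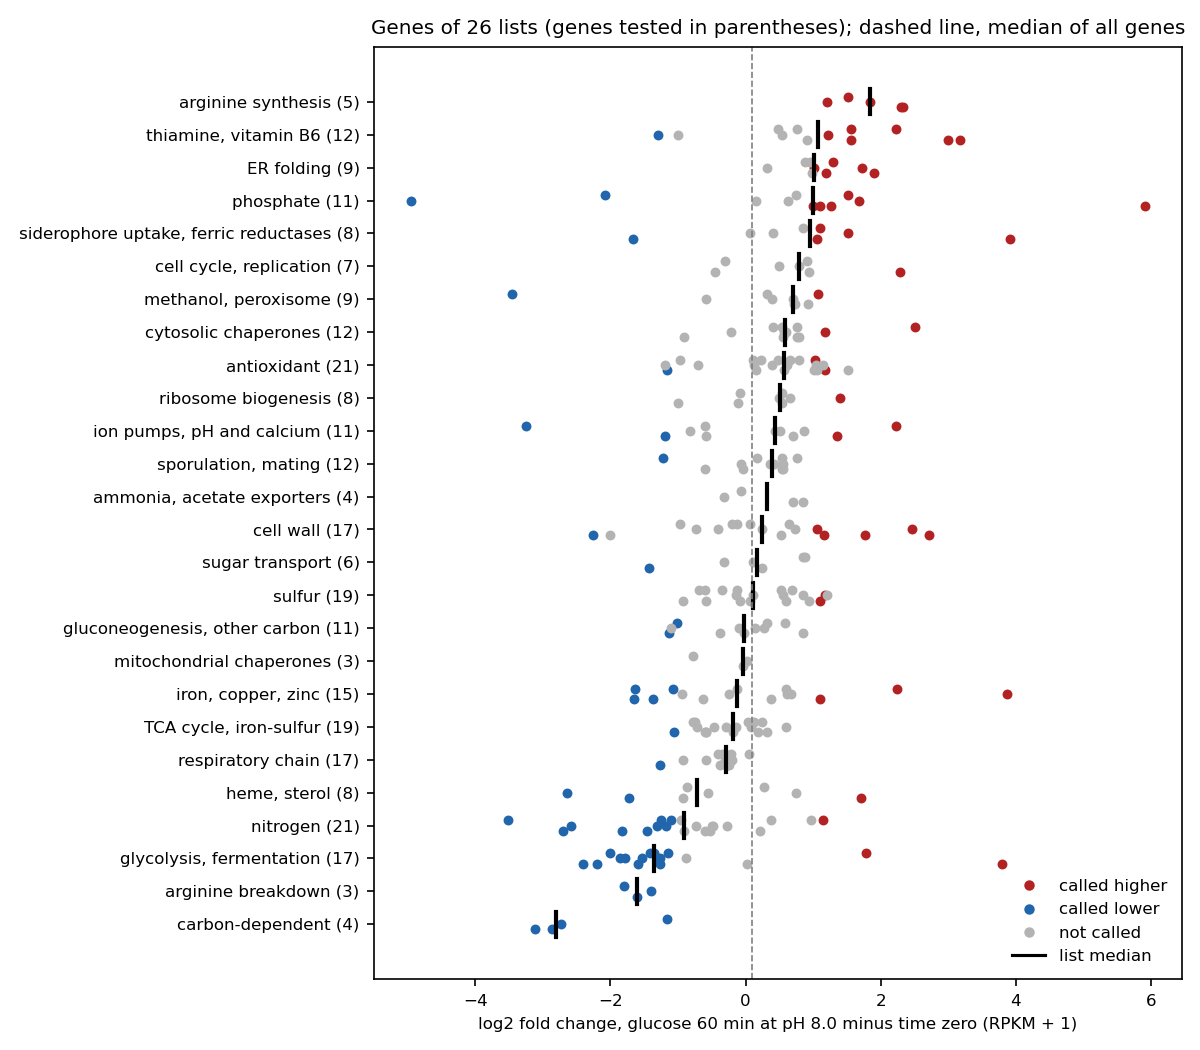
Log2 fold change at 60 min on glucose for each gene of the 26 lists (points, coloured by call), with the list median as a black bar and the median of all genes, 0.10, as a dashed line. Arginine synthesis has the highest list median, 1.84, and glycolysis and fermentation lie at -1.35 with TYE7 (3.80) and PFK26 (1.78) far to the right of the rest.

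Glycolytic and fermentative genes fell broadly, though the cells had been given fresh glucose medium. Of 17 genes, 13 were called lower and 2 higher, and the median change was -1.35. GLK1, a glucokinase, had 326 and 303 RPKM at 60 min against 1463 and 1919 RPKM at time zero (log2 fold change -2.41, SE 0.12, adjusted p = 1.39e-11). PDC1, pyruvate decarboxylase, had 1363 and 1230 RPKM at 60 min against 5360 and 6576 RPKM at time zero, which made it one of the most abundant transcripts before the shift (log2 fold change -2.20, SE 0.14, adjusted p = 8.02e-10). PFK1, the alpha subunit of phosphofructokinase, had 132 and 119 RPKM at 60 min against 443 and 577 RPKM at time zero (log2 fold change -2.01, SE 0.10, adjusted p = 2.86e-11). The falls ran along the pathway, with PGI1 at -1.53, PFK2 at -1.26, FBA1 at -1.41, PGK1 at -1.35 and ENO1 at -1.15. ADH2, an alcohol dehydrogenase, had 1674 and 1357 RPKM at 60 min against 4301 and 6261 RPKM at time zero. TPI1 fell by 0.88 on the log2 scale, short of 2-fold.

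The regulators of glycolysis did not follow the enzymes as a group. TYE7, a helix-loop-helix activator of glycolytic genes in *S. cerevisiae*, had 192 and 190.1 RPKM at 60 min against 12.7 and 12.8 RPKM at time zero (log2 fold change 3.80, SE 0.13, adjusted p = 3.6e-14). PFK26, which makes the activator of phosphofructokinase, had 33.7 and 28.1 RPKM at 60 min against 8.72 and 7.87 RPKM at time zero (log2 fold change 1.78). GCR1, another activator of glycolytic genes in *S. cerevisiae*, had 15.2 and 14.2 RPKM at 60 min against 39.9 and 35 RPKM at time zero (log2 fold change -1.29). The highest of these RPKM values, that of TYE7 at 60 min, came from 2 nearly identical libraries.

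Of 6 genes of sugar transport, 1 was called lower and none higher, where 2.21% of all genes were called lower. GAL2 (C4QYV2), described as a high-affinity glucose transporter, had 800.0 and 699 RPKM at 60 min against 1874 and 2182 RPKM at time zero (log2 fold change -1.43, SE 0.15, adjusted p = 3.14e-07). HXT15 and VVS1, at low levels, rose by 0.86 and 0.87, and GAL2 (C4QZI1), the glucose-sensing regulator MTH1 and the transporter YFL040W did not pass (adjusted p between 0.0902 and 0.878). In the list of gluconeogenesis and other carbon sources none of 11 genes was called higher and 2 were called lower. Over all genes 2.46% were called higher and 2.21% lower. FBP1, a key enzyme of gluconeogenesis, had 76 and 62.5 RPKM at 60 min against 163 and 137 RPKM at time zero (log2 fold change -1.11, adjusted p = 0.0634), and PCK1 had 27.6 and 25.7 RPKM at 60 min against 30.1 and 24.3 RPKM at time zero. The glycerol transporters STL1 (C4R6H9) and STL1 (C4R6F4) fell by 1.14 and 1.02 on the log2 scale. MLS1, malate synthase of the glyoxylate cycle, rose by 0.85.

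Nitrogen genes fell. Of 21, 9 were called lower and 1 higher, 15 fell and 3 rose at the adjusted p, and the median change was -0.91. GDH3, the NADP-dependent glutamate dehydrogenase that fixes ammonium, had 155 and 142 RPKM at 60 min against 1763 and 1649 RPKM at time zero, 11.5-fold lower (log2 fold change -3.51, SE 0.18, adjusted p = 1.89e-11). The ammonium permease MEP1 had 35.7 and 31 RPKM at 60 min against 232 and 213 RPKM at time zero (log2 fold change -2.70, SE 0.12, adjusted p = 1.4e-12). GAT1, a GATA activator of nitrogen-source genes, had 4.93 and 4.48 RPKM at 60 min against 33.7 and 32.9 RPKM at time zero (log2 fold change -2.59, SE 0.20, adjusted p = 9.49e-09). GLN3, another such activator, fell by 1.83 on the log2 scale, and so did the general amino acid permease GAP1 (by 1.46), the acidic amino acid permease DIP5 (by 1.26), the oligopeptide transporter OPT1 (by 1.18) and allantoicase DAL2 (by 1.11). The single gene of the list called higher was URE2-2, with 568 and 702 RPKM at 60 min against 316 and 258 RPKM at time zero. In *S. cerevisiae*, Ure2 holds Gln3 in the cytoplasm.

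Arginine synthesis and breakdown moved in opposite directions. All 5 genes of synthesis were called higher. ARG3, ornithine carbamoyltransferase, had 71.7 and 47.1 RPKM at 60 min against 11.8 and 9.86 RPKM at time zero (log2 fold change 2.33, SE 0.22, adjusted p = 1.53e-07). CPA1, the small subunit of the arginine-specific carbamoyl phosphate synthetase, had 239.9 and 175 RPKM at 60 min against 43.6 and 38.1 RPKM at time zero (log2 fold change 2.30, SE 0.18, adjusted p = 1.02e-08). ARG1 rose by 1.84 and ARG5,6 by 1.52. In each of these named genes replicate 1 at 60 min lay above replicate 2, and both above time zero.

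The 3 tested genes of arginine breakdown were all called lower. CAR2, ornithine transaminase, had 137 and 174 RPKM at 60 min against 501 and 575 RPKM at time zero (log2 fold change -1.79, SE 0.15, adjusted p = 3.99e-08). The arginases CAR1 (C4R298) and CAR1 (C4R8L9) had 41.6 and 52 RPKM and 105 and 119 RPKM at 60 min, against 137 and 149.8 RPKM and 291 and 300.3 RPKM at time zero. Their log2 fold changes were -1.60 (SE 0.29, adjusted p = 0.000279) and -1.39 (SE 0.16, adjusted p = 1.87e-06).

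Of 12 genes listed for thiamine and vitamin B6, 6 were called higher and 1 lower, and 9 rose and 2 fell at the adjusted p, with a median of 1.07. SNZ2, of the pyridoxal phosphate synthase family, had 327 and 325 RPKM at 60 min against 32.8 and 38 RPKM at time zero (log2 fold change 3.17, SE 0.23, adjusted p = 2.67e-09). SNO1, its glutaminase partner, is the adjacent gene on the opposite strand of chromosome 1 and had 149 and 136 RPKM at 60 min against 27.1 and 32.5 RPKM at time zero (log2 fold change 2.22, SE 0.15, adjusted p = 1.59e-09). TPN1, a vitamin B6 transporter, rose by 1.56, while PDX3, which oxidises pyridoxine phosphate, fell by 1.29 on the log2 scale. Among the genes listed for thiamine, PET18 rose by 2.99, the permease genes THI73 and THI72 by 1.56 and 1.23, and the synthesis genes THI20, THI4 and THI6 by 0.91, 0.77 and 0.54. THI13, of thiamine precursor synthesis, did not pass (0.48, adjusted p = 0.0773), and C4R0X5, a hypothetical protein, fell by 1.00 on the log2 scale. Of 19 sulfur genes, 2 were called higher, among them SSU1, a sulfite exporter (1.18), 6 rose and 3 fell at the adjusted p, and the median was 0.11. MET5 and MET10, the sulfite reductase subunits, had 106 and 102 RPKM and 105 and 106 RPKM at 60 min against 53.6 and 43.1 RPKM and 51 and 40.4 RPKM at time zero, but neither stayed past the threshold without any one of the 4 libraries (adjusted p up to 0.171 and 0.213).

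Genes of protein folding in the endoplasmic reticulum rose throughout: all 9 passed the adjusted p upward and 5 were called. CNE1, calnexin, had 887 and 939.6 RPKM at 60 min against 255 and 231 RPKM at time zero (log2 fold change 1.91, SE 0.18, adjusted p = 1.37e-07). HAC1, the transcription factor of the unfolded protein response, rose by 1.73 (SE 0.31, adjusted p = 0.000278), the translocon subunit SEC61 by 1.29 and the chaperone KAR2 by 1.20. KAR2 had 1409 and 1494 RPKM at 60 min against 697 and 575 RPKM at time zero. Levels per gene do not separate spliced from unspliced HAC1.

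Cytosolic chaperones rose less. Of 12, 2 were called higher, and 8 rose and 1 fell at the adjusted p. HSP12, a small membrane-protecting stress protein, had 686 and 912 RPKM at 60 min against 111 and 172 RPKM at time zero (log2 fold change 2.51, SE 0.33, adjusted p = 9.16e-06). HSP82, the Hsp90 chaperone, had 3592 and 4086 RPKM at 60 min against 2492 and 1967 RPKM at time zero (log2 fold change 0.79, adjusted p = 0.00437), and was not past the threshold without time zero replicate 2 (adjusted p = 0.0756). HSP104, a disaggregase, had 128 and 136 RPKM at 60 min against 287 and 218 RPKM at time zero (log2 fold change -0.91, adjusted p = 0.017). It was not past the threshold without time zero replicate 1 (adjusted p = 0.134), 60 min replicate 1 (0.0873) or 60 min replicate 2 (0.0599). Of 3 mitochondrial chaperones and proteases none was called, where 2.46% of all genes were called higher and 2.21% lower. PIM1, a protease, fell by 0.78 on the log2 scale, though not past the threshold without time zero replicate 2 (log2 fold change -0.55).

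Antioxidant genes are where the choice of libraries for the spread mattered. With the spread taken over all 26 libraries, 5 of 21 genes rose and 2 fell, near the shares over all genes of 23.4% and 11.1%. With only the 8 glucose libraries, 12 rose and 4 fell, where the share over all genes moved to 31.5% upward and 14.9% downward. TSA1, a thioredoxin peroxidase, had 5028 and 5549 RPKM at 60 min against 1702 and 1992 RPKM at time zero. The groups lay far apart and the log2 fold change was 1.52, but its SE was 0.72 over all libraries (adjusted p = 0.113) and 0.10 over the glucose libraries (adjusted p = 2.49e-06). CTA1, catalase A, had 114 and 116 RPKM at 60 min against 59.7 and 54 RPKM at time zero, with adjusted p-values of 0.309 and 4.08e-05 in the 2 fits. The 4 glycerol libraries at 15 min of pH 8.0 differed from each other by up to 2.35 on the log2 scale for TSA1 and 2.29 for CTA1. At 15 and 30 min of pH 8.2 on glycerol, with 2 libraries each, the differences were 2.08 and 2.18 for TSA1 and 2.45 and 2.40 for CTA1. Between the 2 glucose libraries at 60 min they were 0.14 for TSA1 and 0.03 for CTA1. Of the genes that passed over all libraries, the methionine sulfoxide reductase C4QZD3 rose by 1.18 and the glutathione transferase GTT1 by 1.03, and YHB1, a flavohemoglobin, fell by 1.16 on the log2 scale. GTT1 overlaps a neighbouring gene model, and without strand its reads cannot be told from those of its neighbour.

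Cell wall genes included a pair that moved apart. GAS1 (C4QVL5), annotated as a beta-1,3-glucanosyltransferase, had 1065 and 1126 RPKM at 60 min against 188 and 206 RPKM at time zero (log2 fold change 2.47, SE 0.12, adjusted p = 5.88e-12). GAS1 (C4QVL4), the adjacent gene on the same strand of chromosome 1, had 94.2 and 108 RPKM at 60 min against 466 and 504 RPKM at time zero (log2 fold change -2.25, SE 0.16, adjusted p = 1.97e-09). At 60 min the order of the pair was the reverse of that at time zero, in each of the 4 libraries. YPS6, an aspartic protease of the yapsin family, had 22.2 and 21 RPKM at 60 min against 2.65 and 2.26 RPKM at time zero (log2 fold change 2.71, SE 0.23, adjusted p = 2.55e-08). TIP1 and PRY2 rose by 1.76 and 1.17. FLO11, a flocculin, had 50.4 and 115 RPKM at 60 min against 222 and 426 RPKM at time zero (log2 fold change -2.00, SE 0.72, adjusted p = 0.0367), and was no longer past the threshold without 60 min replicate 1 (adjusted p = 0.26) or time zero replicate 2 (adjusted p = 0.25). Of 17 genes, 5 were called higher and 1 lower.

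Among 8 genes of heme and sterol synthesis, 2 were called lower and 1 higher, and 5 fell and 3 rose at the adjusted p. Of the 5, HEM3 was lost without each of the 4 libraries in turn. HEM13, an oxygen-requiring enzyme of heme synthesis, had 72.4 and 73 RPKM at 60 min against 368 and 569 RPKM at time zero (log2 fold change -2.64, SE 0.17, adjusted p = 6.08e-10). Its gene lies 210 bases from that of NRG1 on the same strand, and both fell. ERG1, squalene epoxidase, had 77.9 and 70 RPKM at 60 min against 219 and 278 RPKM at time zero (log2 fold change -1.73, SE 0.11, adjusted p = 6.96e-10), whereas C4QVK3, annotated as a lanosterol demethylase, rose by 1.71. In the respiratory chain 7 of 17 genes fell and none rose, but only CYC1, cytochrome c, was called, with 1694 and 1666 RPKM at 60 min against 4327 and 3744 RPKM at time zero (log2 fold change -1.26). Over the 8 glucose libraries 13 of the 17 fell, where 14.9% of all genes fell. In the TCA cycle and iron-sulfur list 5 of 19 fell and none rose, with SDH2, the iron-sulfur subunit of succinate dehydrogenase, called (-1.07). Of the 5, LEU1 was lost without each of the 4 libraries in turn. GLT1 was lost without 60 min replicate 2 or time zero replicate 1, and SHH4 without time zero replicate 1. Over the 8 glucose libraries 9 of the 19 fell and 3 rose, against 14.9% and 31.5% of all genes.

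Genes of methanol use did not move together. AOX1, alcohol oxidase, had 7.29 and 6.89 RPKM at 60 min against 3.92 and 3.96 RPKM at time zero (log2 fold change 0.71, adjusted p = 0.014), a low level throughout. C4R0A4, described as a bifunctional alcohol and formaldehyde dehydrogenase, had 161 and 152 RPKM at 60 min against 1569 and 1913 RPKM at time zero (log2 fold change -3.46, SE 0.18, adjusted p = 2.6e-11). Of the 9 genes of this list 6 rose, with a single call upward, C4R0R1, described as a peroxin (1.07). FOX2, of fatty acid oxidation, and PEX5, a peroxisomal import receptor, rose by 0.92 and 0.73.

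Of 7 genes of the cell cycle and replication, 5 rose and 1 fell, with 1 called. PCL5, a cyclin of the Pho85 kinase, had 361 and 266 RPKM at 60 min against 64.7 and 61.1 RPKM at time zero (log2 fold change 2.28, SE 0.23, adjusted p = 3.14e-07). The replication genes CDC6, MCM5 and MCM3 rose by 0.94, 0.91 and 0.79, short of 2-fold. Of 8 genes of ribosome biogenesis, 5 rose and 1 fell, with RSA1, an assembly factor, the only one called (1.40). Of 12 genes of sporulation and mating, programmes of yeast development, none was called higher, against 2.46% of all genes, 4 rose and 2 fell at the adjusted p, PRM10 was called lower (-1.22), against 2.21% of all genes, and the largest rise of the list was that of the pheromone receptor STE3 (0.76). Of 4 genes of ammonia and acetate export none was called, where 2.46% of all genes were called higher and 2.21% lower. ATO2 (C4R1C0) and ATO1 rose by 0.85 and 0.70. That of ATO1 was lost without 60 min replicate 1 or time zero replicate 2, where its change was 0.56. The 4 genes listed for their dependence on the carbon source, TMA10, RGI2, PIC2 and AQR1, were all called lower, against 2.21% of all genes. The list was chosen with earlier results of these data known, so this is not independent evidence. For AQR1 the difference between the changes on glucose and glycerol did not pass (limma adjusted p = 0.0749).

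The 60 min sample is the last point of a course, and for several groups it was not the extreme. The samples at 15, 30 and 60 min share the time zero libraries, so levels are given side by side with no test. Of the 124 genes called higher at 60 min, the mean level was highest at 15 min in 5, at 30 min in 41 and at 60 min in 78, and of the 111 called lower it was lowest at 15 min in 23, at 30 min in 28 and at 60 min in 60. Genes were called on the 60 min libraries, which favours that time. PHO89 had 28.5 and 26.4 RPKM at time zero, 1269 and 1380 RPKM at 15 min, 2089 and 1987 RPKM at 30 min and 1828 and 1609 RPKM at 60 min. It was thus near its final level at the first sampling, and PHO84 (C4R3N5) was still falling, with 42.7 and 52.3 RPKM at 15 min and 14.7 and 14.3 RPKM at 30 min.

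**Figure D3:**
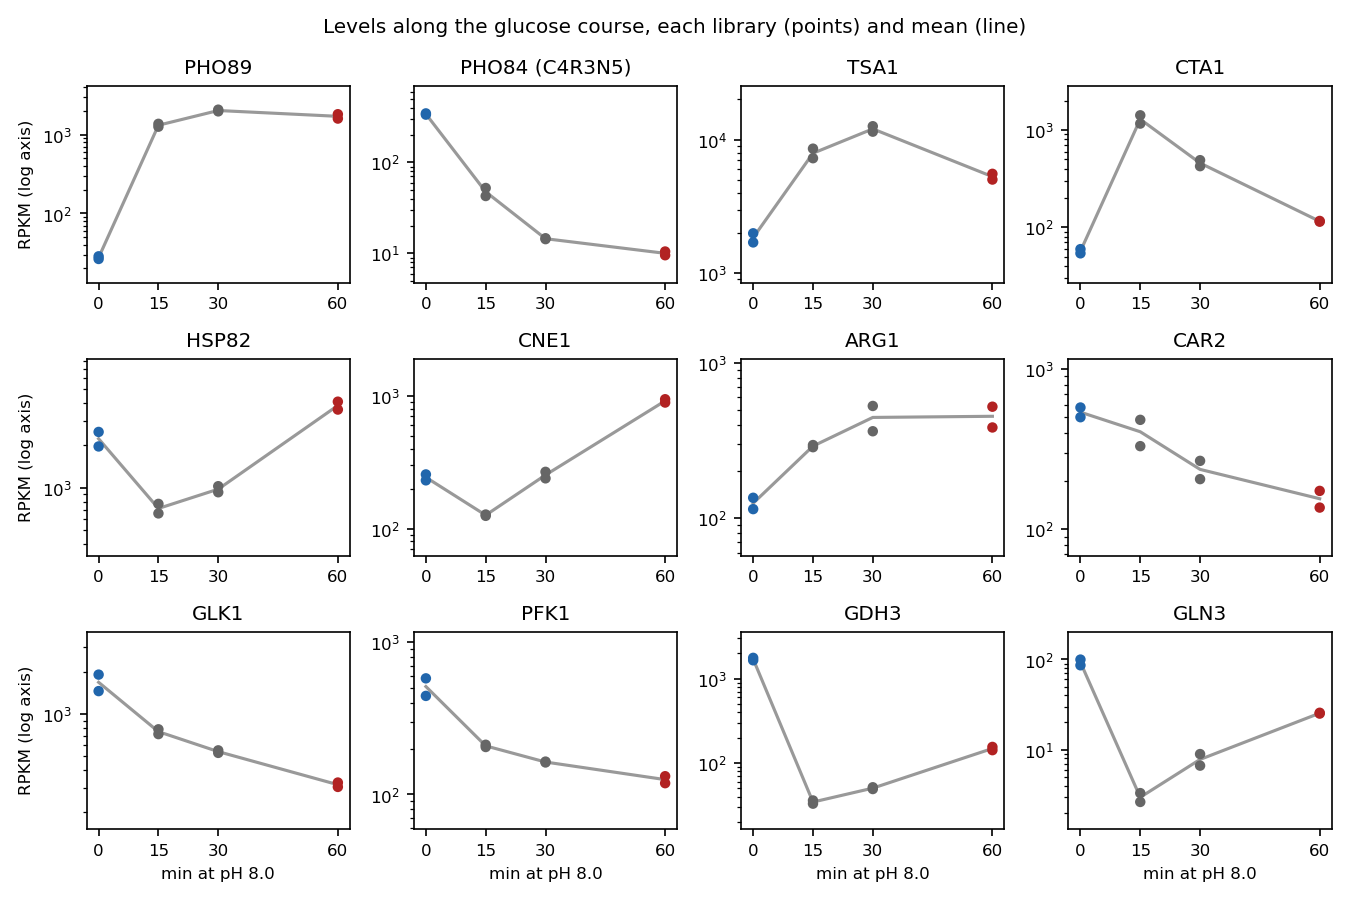
RPKM on a log axis against min at pH 8.0 on glucose for 12 genes, with each library as a point (blue at time zero, red at 60 min) and a line through the means. HSP82 and CNE1 lie below time zero at 15 min and above it at 60 min, TSA1 and CTA1 peak before 60 min, and GLN3 and GDH3 are lowest at 15 min.

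HSP82, CNE1, KAR2 and CPR6 were below time zero at 15 min and above it at 60 min. HSP82 had 2492 and 1967 RPKM at time zero, 770.0 and 659 RPKM at 15 min, 1028 and 931 RPKM at 30 min and 3592 and 4086 RPKM at 60 min. CNE1 had 255 and 231 RPKM at time zero, 125 and 128 RPKM at 15 min, 267 and 239 RPKM at 30 min and 887 and 939.6 RPKM at 60 min. KAR2 was at 328 and 299 RPKM and CPR6, a cyclophilin, at 132 and 125 RPKM at 15 min. HSP104 had 18.8 and 16.1 RPKM at 15 min and was still below time zero at 60 min. HAC1 differed, with 102 and 84.6 RPKM at 15 min and 202 and 181 RPKM at 30 min, above time zero throughout.

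TSA1 and CTA1 were highest before 60 min. TSA1 had 1702 and 1992 RPKM at time zero, 8563 and 7264 RPKM at 15 min, 12603 and 11476 RPKM at 30 min and 5028 and 5549 RPKM at 60 min. CTA1 had 59.7 and 54 RPKM at time zero, 1415 and 1163 RPKM at 15 min, 425 and 489.5 RPKM at 30 min and 114 and 116 RPKM at 60 min, so most of its rise had passed by 60 min. MXR1, a methionine sulfoxide reductase, crossed over. It had 409 and 301 RPKM at time zero, 889 and 810.1 RPKM at 15 min, 669.7 and 754 RPKM at 30 min and 205 and 226 RPKM at 60 min. YHB1 was below time zero throughout, with 123 and 113 RPKM at time zero, 43.8 and 37.7 RPKM at 15 min, 40.4 and 39 RPKM at 30 min and 50.4 and 54.1 RPKM at 60 min. The fall of MXR1 at 60 min was not past the threshold without 60 min replicate 1 (adjusted p = 0.0973) or time zero replicate 1 (adjusted p = 0.162).

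GLN3 and GDH3 were lowest at 15 min and part of the way back at 60 min, while GAT1 was not. GLN3 had 99.7 and 86.2 RPKM at time zero, 3.29 and 2.63 RPKM at 15 min, 8.93 and 6.64 RPKM at 30 min and 25.6 and 25.1 RPKM at 60 min. GDH3 had 1763 and 1649 RPKM at time zero, 33 and 36 RPKM at 15 min, 51.6 and 49.2 RPKM at 30 min and 155 and 142 RPKM at 60 min. GAT1 had 33.7 and 32.9 RPKM at time zero, 4.69 and 7.44 RPKM at 15 min, 3.69 and 5.78 RPKM at 30 min and 4.93 and 4.48 RPKM at 60 min, and so stayed low. Among glycolytic enzymes, GLK1 and PGK1 were lowest at 60 min. GLK1 had 1463 and 1919 RPKM at time zero, 722 and 781 RPKM at 15 min, 530.0 and 552 RPKM at 30 min and 326 and 303 RPKM at 60 min. PGK1 had 2586 and 3245 RPKM at time zero and 2879 and 3896 RPKM at 15 min, and lay below time zero only from 30 min on, at 1862 and 2226 RPKM.

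Late rises were seen in the vitamin B6 pair. SNZ2 had 32.8 and 38 RPKM at time zero, 42.3 and 41.2 RPKM at 15 min, 98.2 and 92.8 RPKM at 30 min and 327 and 325 RPKM at 60 min. YDL218W, a hypothetical protein, had 5.54 and 4.97 RPKM at time zero, 6.72 and 5.54 RPKM at 15 min, 22.8 and 22 RPKM at 30 min and 70.9 and 48.6 RPKM at 60 min. C4R402, similar to the gluconate transport inducer gti1 of *Schizosaccharomyces pombe*, was early instead, with 2.88 and 2.11 RPKM at time zero, 132 and 140.0 RPKM at 15 min, 87.4 and 89.8 RPKM at 30 min and 75.5 and 70.7 RPKM at 60 min.

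Cells on glycerol shifted to pH 8.0 allowed the glucose response at 60 min to be set against another carbon source, with no library in common. The change on glucose minus the change on glycerol passed the adjusted p in 297 genes (5.90%), 144 upward (2.86%) and 153 downward (3.04%). Of the 124 genes called higher on glucose, 122 had a positive change on glycerol and 31 passed the test of the difference, 19 of them with the larger change on glucose. Of the 111 called lower, 100 had a negative change on glycerol and 38 passed, 36 of them with a change further down on glucose. Over all genes, a change had the same sign on glycerol in 75.9% of those up and 74.6% of those down on glucose. The number of genes that passed depended on single libraries, and was 88 without glucose time zero replicate 2 and at most 227 without any other.

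In many of these genes the carbon sources differed more before the shift than after it. The gap between glucose and glycerol was larger at time zero than at 60 min in 189 of the 297 genes (63.6%), against 50.9% of all genes. For the 153 genes with the lower change on glucose this was so in 109 (71.2%), and the median gap, glucose minus glycerol, was -0.27 at 60 min and 0.53 at time zero. For the 144 genes with the higher change it was so in 80 (55.6%), nearer the share of all genes. Their median gap was 0.28 at 60 min and -0.35 at time zero. The genes had been picked by the difference between these gaps, and the shares were not tested. RGI2, a gene linked to respiratory growth in *S. cerevisiae*, had 37.5 and 36.7 RPKM at 60 min against 192 and 332 RPKM at time zero on glucose, and 40.3 and 36.1 RPKM at 60 min against 31.2 and 39.9 RPKM at time zero on glycerol. All 4 libraries at 60 min were thus alike, and the glucose libraries at time zero stood apart. MCM3 had 47.7 and 45.2 RPKM at 60 min against 27.8 and 25.3 RPKM at time zero on glucose, and 45.1 and 46.9 RPKM at 60 min against 74 and 62.9 RPKM at time zero on glycerol, again alike at 60 min.

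**Figure D4:**
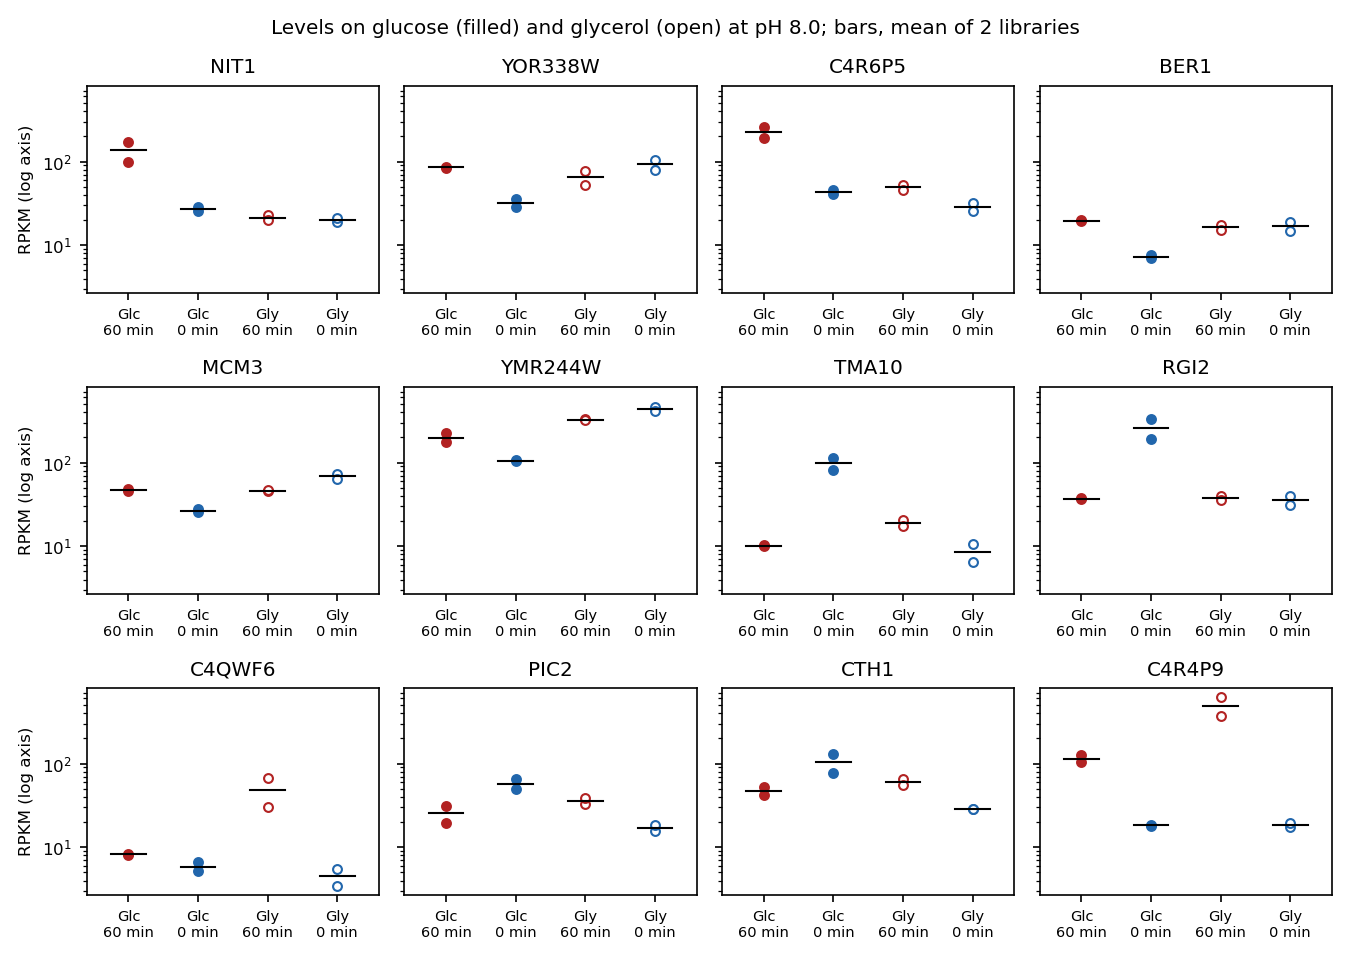
RPKM on a log axis for the 12 genes with the largest difference between the changes on glucose (Glc, filled) and glycerol (Gly, open) at pH 8.0, with 60 min left of time zero for each carbon source and a bar at the mean of 2 libraries. In the first 6 panels the change on glucose is the higher, and in RGI2, MCM3 and BER1 the 2 carbon sources meet at 60 min.

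Several of the groups above differed by carbon source. Glycolysis held 6 genes with the lower change on glucose and 1 with the higher: PFK1 changed by -2.01 on glucose and -1.18 on glycerol on the log2 scale (difference -0.83, SE 0.15, adjusted p = 0.0034). That of GLK1 was -0.64 (adjusted p = 0.03) and was lost without 6 of the 8 libraries in turn (adjusted p up to 0.17). Both STL1 genes did the same, with STL1 (C4R6F4) at -1.02 on glucose and 0.39 on glycerol (difference -1.41, adjusted p = 0.00091). PHO84 (C4R3N5) changed by -4.95 on glucose and -5.98 on glycerol (difference 1.02, SE 0.18, adjusted p = 0.0034). FET3 changed by -1.66 on glucose and -0.65 on glycerol (adjusted p of the difference = 0.0032). All 3 genes of arginine breakdown had the lower change on glucose. CAR1 (C4R8L9) changed by -1.39 on glucose and -0.23 on glycerol (difference -1.17, SE 0.23, adjusted p = 0.0058). CAR2 changed by -1.79 on glucose and -0.81 on glycerol. Its difference (adjusted p = 0.012) was lost without glucose 60 min replicate 1 (adjusted p = 0.0811) or glucose time zero replicate 2 (adjusted p = 0.072). That of CAR1 (C4R298) was -1.73 (adjusted p = 0.017) and was lost without 4 of the 8 libraries in turn, at most at an adjusted p of 0.09.

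Arginine synthesis rose by more on glucose in ARG3, CPA1 and ARG1, with differences of 1.23, 1.02 and 0.91 (adjusted p = 0.029, 0.024 and 0.037). The differences did not stay past the threshold without single libraries: the adjusted p was 0.158, 0.134 and 0.188 without glucose 60 min replicate 1, 0.12, 0.107 and 0.154 without glucose time zero replicate 2, and also above 0.05 in 3 or 4 of the other 6 fits of that kind. The replication genes MCM3, MCM5 and CDC6 had differences of 1.34, 1.23 and 1.12 and passed in each fit without a library. For PHO89, ZRT1, TYE7, ENA2 and GAS1 (C4QVL5) no difference was detected, with estimates between -0.36 and 0.24 and SEs between 0.14 and 0.20.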

How the data were processed

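Poly(A)-selected RNA from *K. phaffii* X-33 was sequenced as non-directional libraries. The authors mapped reads with Bowtie2 in local, sensitive mode to the ASM2700v1 assembly and deposited RPKM values per gene made with SeqMonk v1.48.0. The treatment of reads that map to several places is not given in the sources used here. Without strand, reads of the 150 gene models that overlap a neighbour cannot be told apart. The depth of each library was recovered as the number at which RPKM times gene length came out as whole reads. At that depth at least 99.94% of values in each library were whole reads within 0.01 read. The deposited table of the authors' own comparisons, made with DESeq2, holds fold changes and p-values, and only its gene names and descriptions were used.

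RPKM values were analysed as log2(RPKM + 1) with limma 3.58.1 in R 4.3.3, on genes with at least 1 RPKM in at least 2 libraries (5034 of 5040). The fit had 12 group means over 26 libraries and variances shrunk with a trend on mean expression. The change on glucose minus that on glycerol was a contrast of the same fit, called at an adjusted p of 0.05. Groups followed the sample labels. The same steps were run on simulated data in which each gene had an equal spread in all groups. In the real data the spread differs between groups, as for TSA1, so that run checks only the code. Named genes were the 12 largest called rises, the 12 largest called falls, up to 4 genes of each of 26 lists and the 6 largest differences between carbon sources in each direction. Genes named beyond these, among them further list members, were chosen after their values were seen. The members and lists were chosen with earlier results of these data known. Alternatives were the pseudocount, the filter, median-ratio scaling, no trend, fewer libraries in the fit, a replicate block and leaving out each library. Promoter motifs were not analysed here, and values of 1 listed gene are not reported here.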

Additional observations from a re-analysis of the deposited data

Results flagged for a closer look

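The change at 60 min of pH 8.0 differed between glucose and glycerol in 297 genes by the test of the difference itself (limma, adjusted p under 0.05), and the 12 given here are the 6 largest differences in each direction. The difference, glucose minus glycerol on the log2 scale, was -4.21 for TMA10, -2.84 for RGI2, -2.66 for C4QWF6, -2.21 for PIC2, -2.12 for CTH1 and -2.05 for C4R4P9. It was 2.14 for NIT1, 1.89 for YOR338W, 1.60 for C4R6P5, 1.36 for BER1, 1.34 for MCM3 and 1.31 for YMR244W. TMA10, a ribosome-associated protein, had 10.1 and 10.2 RPKM at 60 min against 81.2 and 114 RPKM at time zero on glucose, and 20.4 and 17.5 RPKM at 60 min against 6.53 and 10.5 RPKM at time zero on glycerol. C4QWF6 and C4R4P9, both hypothetical proteins, are set apart by their level on glycerol at 60 min, which was 67.8 and 30.1 RPKM for C4QWF6 and 616 and 370.1 RPKM for C4R4P9.

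Leaving out each of the 8 libraries in turn, 8 of the 12 genes stayed past the threshold each time. CTH1 was lost without glucose time zero replicate 2 (adjusted p = 0.0622). NIT1 was lost in 7 fits (adjusted p up to 0.182), YOR338W in 6 (up to 0.128) and C4R6P5 in all 8 (up to 0.157). NIT1, a nitrilase, had 173 and 99.3 RPKM at 60 min against 28.3 and 25.8 RPKM at time zero on glucose, with replicates at 60 min well apart.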

How the results depend on the processing

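The counts of 124 genes called higher and 111 called lower stayed within 1.5 times under each alternative run, at 98 to 132 and 99 to 130. Without one of the 4 libraries they were 107 to 134 and 108 to 119. With median-ratio scaling the counts were 100 and 130. At a raw limma p under 0.05, 1097 genes were then higher and 1003 lower. With levels as deposited and no filter on low values these numbers were 1520 and 698. The 297 genes with a difference between carbon sources became 511 when only the 18 libraries of the 2 pH 8.0 courses set the spread, and 478 with a replicate block. They were 88 to 227 without one of the 8 libraries, the smallest without glucose time zero replicate 2. The cause was not tested. Of 131 named genes, 114 kept their side of the threshold without each of the 4 libraries.

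Replicates with the same number correlated in their deviations at 0.11 between 60 min and time zero on glucose, 0.22 between 60 and 15 min and 0.25 between 60 and 30 min. The labels do not say that a number marks a culture, and 60 min and time zero form only 2 pairs, so the samples were not taken as paired. With the replicate block 129 genes were called higher and 116 lower. Recovered depth was similar across libraries, at 16.3 to 20.4 M reads. Each group had 2 libraries, except glycerol at 15 min of pH 8.0, which had 4.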

Other observations

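Genes below were chosen after their values were seen. Several transporters of the plasma membrane fell, while others, among them ENA2 (2.23), SSU1 (1.18) and the putative ABC transporter C4QZC3 (3.03), rose. PDR12, an ABC transporter that exports weak acids in *S. cerevisiae*, had 4.42 and 4.21 RPKM at 60 min against 33 and 27.4 RPKM at time zero (log2 fold change -2.55, limma adjusted p = 2.45e-09). The polyamine transporters TPO3 (C4QXE6) and TPO1 fell by 2.27 and 1.41 on the log2 scale, and YOR1, an ABC transporter, by 1.46. AQR1, a multidrug transporter, had 109.8 and 89.9 RPKM at 60 min against 600.2 and 892 RPKM at time zero. In each of the 5 that fell both libraries at 60 min lay below both at time zero, but this held for all 111 genes called lower and for 23.9% of all genes.

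Both ARO9 and ARO10 (C4R3I9), of aromatic amino acid breakdown, rose. ARO9, an aromatic aminotransferase, had 289 and 173 RPKM at 60 min against 41.3 and 32.6 RPKM at time zero (log2 fold change 2.57, SE 0.74, limma adjusted p = 0.0106), and ARO10 (C4R3I9), a decarboxylase, rose by 1.30. At 15 min both had been below time zero, with 15.8 and 14.1 RPKM for ARO9. In NAD synthesis, BNA1 and BNA2 of the route from tryptophan fell by 1.59 and 1.11 on the log2 scale, while NPT1, of the salvage route, rose by 1.36. In sphingolipid metabolism, the hydroxylase SUR2 and the kinase LCB5 fell by 1.25 and 1.34 on the log2 scale, and RSB1, a sphingoid base transporter, rose by 1.20. C4QYG9, described as a peroxisomal primary amine oxidase, had 23 and 23.6 RPKM at 60 min against 3.26 and 3.24 RPKM at time zero (log2 fold change 2.52).

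Among called genes, 32 pairs were direct neighbours on a chromosome, 12 with both higher, 10 with both lower and 10 in opposite directions. GAT1 and HSP12 are such an opposite pair, with -2.59 and 2.51, and BUL1, which rose by 2.66, lies beside URA1. Pairs can share a gene, as in the run from C4R7M6 to C4R7N0, so they are not separate. The count was not set against that of genes in random order, so it says nothing about clustering.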
